A study of Mus musculus with 3 samples.

Results

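The 5140 Pol2-S5p regions described here shared no base pair with any Pol2-S7p region or any H3K27me3 region, and are called Pol2-S5p-only regions. They were chosen by that overlap from the 29222 regions of the Pol2-S5p list and were 17.6% of it, with an exact Clopper-Pearson 95% interval of 17.2% to 18%. The share was 7.74% among Pol2-S5p regions above the median score and 48.6% when only other marks' regions above their median score were used. All such intervals given here cover counting error only. Chromatin immunoprecipitation followed by sequencing (ChIP-seq) had been done in F123 mouse embryonic stem cells (mESCs), a male line of genotype Hybrid F1 S129/Jae and Cast. The cells were kept on inactivated fibroblast feeders with LIF and were passaged without feeders on gelatin, with more LIF, before harvest. There was 1 library per mark, for Pol2-S5p, Pol2-S7p and H3K27me3, with no replicates and no input library used here, so no difference below has a test and regions are not replicates of a condition. The Pol2-S7p list held 22320 regions and the H3K27me3 list 17342, and the lists hold no read counts.

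RNA polymerase II carries a long repeated tail on its largest subunit. Phosphorylation of serine 5 of the repeat accompanies initiation and early elongation at promoters and also marks poised polymerase at Polycomb targets, while serine 7 phosphorylation accompanies transcribing polymerase at active genes. H3K27me3 is deposited by Polycomb repressive complex 2 at silenced developmental genes, so a region with Pol2-S5p and neither other mark is outside the usual active and Polycomb-bound classes.

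The promoters of the 8 mESC marker genes read as a check of the cell type (Pou5f1, Sox2, Nanog, Klf4, Esrrb, Zfp42, Sall4 and Lin28a) all carried Pol2-S5p and Pol2-S7p. Of these 8, 4 also carried H3K27me3 (Sox2, Klf4, Lin28a and Esrrb). None of the 8 feeder fibroblast markers (Col1a1, Col1a2, Col3a1, Thy1, Pdgfrb, Postn, Twist2 and Prrx1) carried Pol2-S7p, and 6 of them carried H3K27me3. Among them Thy1, Pdgfrb, Twist2 and Prrx1 carried Pol2-S5p as well. In a longer list of 24 fibroblast markers, 9 had Pol2-S7p at a start, 14 had Pol2-S5p and 17 had H3K27me3. No Pol2-S5p-only region lay at a promoter of either set.

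Some stretches of sequence recurred among Pol2-S5p-only regions, and 6 are printed here because 24.2% of the Pol2-S5p-only windows held at least 1 of their groups. The 600 bp window at the middle of every Pol2-S5p region was read from RefSeq's copy of GRCm38.p6, the build also named mm10. Words of 20 bases present in at least 100 of these windows were joined into groups when they occurred in the same windows, without regard to which windows were Pol2-S5p-only. Below is 1 stretch for each of the 6 groups with the most Pol2-S5p-only windows, from the highest-scoring such region with enough flanking sequence, with the word held by the most of them in capitals.
Group A, chr10:25419042-25419191, minus strand: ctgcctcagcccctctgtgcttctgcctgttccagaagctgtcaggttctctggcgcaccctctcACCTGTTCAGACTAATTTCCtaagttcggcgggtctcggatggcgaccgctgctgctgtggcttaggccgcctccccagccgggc
Group B, chr11:56593382-56593531, minus strand: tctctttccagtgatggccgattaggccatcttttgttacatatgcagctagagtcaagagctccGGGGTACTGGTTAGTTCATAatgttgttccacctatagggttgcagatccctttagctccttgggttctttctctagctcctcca
Group C, chr7:10471604-10471753, plus strand: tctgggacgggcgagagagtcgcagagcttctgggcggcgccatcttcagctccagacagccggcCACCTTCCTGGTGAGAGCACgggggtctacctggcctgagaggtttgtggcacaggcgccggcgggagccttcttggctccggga
Group D, chr4:147125913-147126062, minus strand: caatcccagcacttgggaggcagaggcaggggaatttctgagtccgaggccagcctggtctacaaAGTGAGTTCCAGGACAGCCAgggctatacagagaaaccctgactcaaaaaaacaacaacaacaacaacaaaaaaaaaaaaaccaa
Group E, chr8:51731767-51731916, plus strand: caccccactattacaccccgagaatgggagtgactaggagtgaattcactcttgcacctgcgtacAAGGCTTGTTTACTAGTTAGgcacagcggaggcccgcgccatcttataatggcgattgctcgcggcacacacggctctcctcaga
Group F, chrX:165701493-165701642, plus strand: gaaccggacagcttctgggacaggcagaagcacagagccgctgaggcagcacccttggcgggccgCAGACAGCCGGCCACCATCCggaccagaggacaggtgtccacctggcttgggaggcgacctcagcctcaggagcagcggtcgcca

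Groups B, C, E and F were held by a larger share of Pol2-S5p-only windows than of other Pol2-S5p windows. Group E was in 154 Pol2-S5p-only windows, 3.0% of them (2.55% to 3.50%), against 0.349% (0.278% to 0.432%) of the other Pol2-S5p windows. Of the 238 Pol2-S5p windows with group E, 64.7% were Pol2-S5p-only, where 17.6% of all Pol2-S5p regions were. Group C was in 233 Pol2-S5p-only windows, 4.53% (3.98% to 5.14%), against 0.797% of the others. Group B was in 302, 5.88% (5.25% to 6.55%), against 1.38%. Group F was in 101, 1.96% (1.60% to 2.38%), against 0.739%. Groups A and D ran the other way: group A was in 421 Pol2-S5p-only windows, 8.19% against 10.8% of the others, and group D in 160, 3.11% against 4.58%.

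The same words were counted in the middle windows of the other marks' regions. Group E was in 0.341% of Pol2-S7p windows and 0.0980% of H3K27me3 windows. Group C was in 0.789% and 0.456%, and group F in 0.381% and 0.0980%. Group B was in 1.08% of Pol2-S7p windows and 2.61% of H3K27me3 windows. In Pol2-S7p windows, the shares of groups A (11.3%) and D (4.46%) were close to those of the other Pol2-S5p windows. Together the 6 groups were in 1243 Pol2-S5p-only windows, 24.2% of them, against 18.8% of all Pol2-S5p windows. The 6 were picked from 44 groups by their number of Pol2-S5p-only windows. Their shares were not split by width, although 53.2% of Pol2-S5p-only regions and 26.8% of the others were 1 kb or less. The part of width and of this choice in the shares was not tested.

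**Figure D1:**
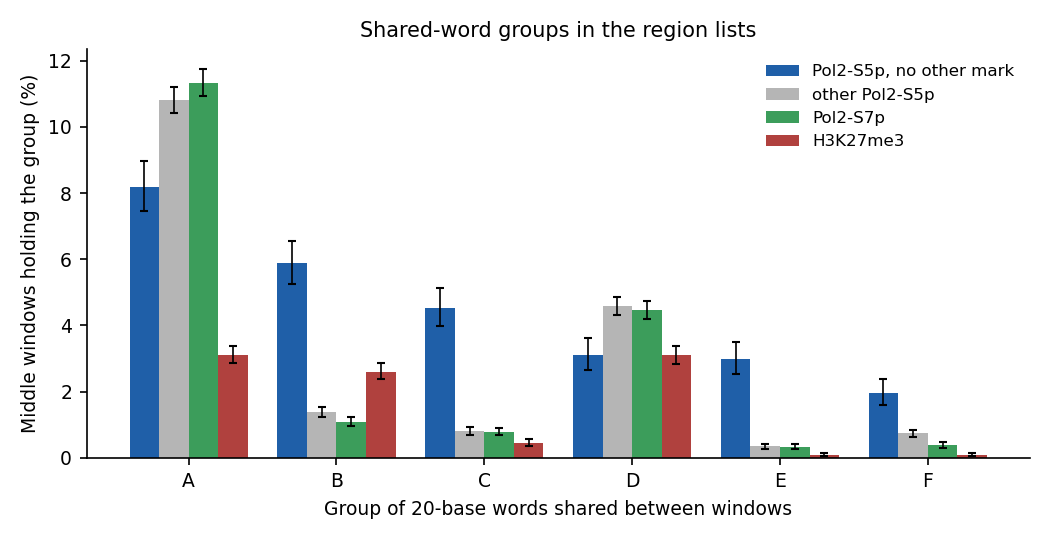
Share of 600 bp middle windows (vertical axis, percent, bars with exact 95% intervals) that hold each group of shared 20-base words (horizontal axis) in Pol2-S5p-only, other Pol2-S5p, Pol2-S7p and H3K27me3 regions. Groups B, C, E and F stand highest in Pol2-S5p-only windows (5.88%, 4.53%, 3.0% and 1.96%), and groups A and D do not. Regions of all widths are pooled.

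The groups differed in where their Pol2-S5p-only regions lay and what they were made of. The regions of group C were rich in GC, with a median of 63.5% in the window, and 0% touched a promoter. The regions of group E were narrow, with a median width of 600 bp, and 80.5% lay between genes. Group B had a median GC of 45.8% and the lowest median score of the 6, 4.76, and 37.4% of its Pol2-S5p-only regions were on chromosome X or Y. Group D had wider regions (median 1400 bp), of which 10.6% touched a promoter. The capitalised word of each group occurred many times on the 21 chromosomes, from 433 exact copies for group F and 1645 for group E to 50389 for group B and 79442 for group D. No repeat annotation was read here, so no family name is given to any group.

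To see how distinct these sequences were at the length of a read, stretches of 75 bases were taken every 25 bases along each middle window and their exact copies on both strands of the 21 chromosomes were counted. Every stretch occurred once in 51.7% (50.3% to 53.1%) of the Pol2-S5p-only windows and in 70.5% (69.9% to 71%) of the other Pol2-S5p windows. By this measure the Pol2-S5p-only share was the lower one in each width class. It was 41.8% against 51.8% at 1 kb or less, 58.2% against 70.5% from 1 to 3 kb, and 71.6% against 81.7% above 3 kb. The order was the reverse for the most repeated windows at 1 kb or less, where under 50% of the stretches occurred once in 24.0% of Pol2-S5p-only and 30.7% of other windows. Windows in which no stretch occurred once were few, 5.86% of Pol2-S5p-only and 4.79% of other windows. On chromosome Y they were 61.9% and 57.0%, but on chromosome X 7.30% and 10.7%. At 1 kb or less they were 4.49% and 5.66%, from 1 to 3 kb 7.55% and 6.92%, and above 3 kb 7.16% and 2.88%. In regions with at least 90% of bases marked as repeats, described below, they were 20.3% and 30.5%. Where a stretch has several exact copies the aligner places a read at 1 of them, and the part of read placement in the results was not tested.

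Bases marked as repeats by lower case in the reference (repeat-masked) were more frequent in Pol2-S5p-only regions. The median masked share was 46.0% (quartiles 18% and 86.4%) against 21.6% (10.3% and 39.1%) in the other Pol2-S5p regions, and 36.4% of the sequenced genome was masked. At least 50% of the bases were masked in 2448 of 5140 Pol2-S5p-only regions, 47.6% (46.3% to 49.0%), against 25.5% of all Pol2-S5p regions. Narrow regions led: at 1 kb or less the median was 66.4% against 21.5% in other regions of that width, from 1 to 3 kb 37.8% against 13.8%, and above 3 kb 26.8% against 23.6%. Very highly masked regions, with at least 90% of bases masked, were 22.1% of the Pol2-S5p-only list and 10.7% of the others.

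CpG-rich sequence, the usual composition of mouse promoters, had a lower share in the Pol2-S5p-only list. With a GC share of at least 50% and a CpG ratio of observed to expected of at least 0.6, 199 Pol2-S5p-only regions were CpG-rich, 3.87% (3.36% to 4.44%), against 16.1% of all Pol2-S5p regions. The share was 10.3% among Pol2-S5p-only regions above the median score, 6.50% when the rule used only other marks' regions above their median score, and 8.95% with a CpG ratio limit of 0.5. Among regions of 1 kb or less the shares were 6.43% and, in the other Pol2-S5p regions, 30.6%. The median CpG ratio was 0.249 in Pol2-S5p-only regions and 0.332 in the others, and median GC was 48.7% and 51.0%.

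Motif letters of 13 factors or promoter elements were searched on both strands of the windows. These were the octamer ATTTGCAT, Sox CATTGTT, Klf GGGTGTGG, Esrrb TCAAGGTCA, ETS CCGGAAG, NRF1 GCGCATGCG, YY1 AAGATGGC, the E-box CACGTG, the CCAAT box ATTGG, AP-1 TGAGTCA, CRE TGACGTCA, the GC box GGGGCGG and the TATA box TATAAA. The GC box was in 6.69% of Pol2-S5p-only windows and 16.9% of the others, ETS in 5.76% and 13.9%, NRF1 in 0.272% and 0.889%, and CRE in 0.447% and 0.909%. The E-box was in 7.76% and 9.51%. These 5 motifs all have a CpG in their letters. The order held in each width class for ETS, NRF1, CRE and the GC box, while above 3 kb the E-box was in 9.93% against 9.46%. The 8 motifs without a CpG had the higher share in Pol2-S5p-only windows when all widths were pooled. The Sox letters were in 8.13% against 5.88%, the octamer in 3.75% against 2.58%, the TATA box in 29.9% against 20.8%, the CCAAT box in 56.0% against 46.7%, AP-1 in 8.0% against 7.23%, Esrrb in 1.42% against 1.12% and Klf in 5.76% against 5.42%. Above 3 kb Klf (5.54% against 5.91%) and Esrrb (1.5% against 1.54%) had the lower share. Over all 29222 windows the shares were 2.79% for the octamer, 6.27% for Sox, 5.48% for Klf, 1.17% for Esrrb, 12.5% for ETS, 0.780% for NRF1 and 16.3% for YY1. They were 9.20% for the E-box, 48.3% for the CCAAT box, 7.36% for AP-1, 0.828% for CRE, 15.1% for the GC box and 22.4% for the TATA box.

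The YY1 letters followed the shared words. They were in 20.4% (19.3% to 21.6%) of Pol2-S5p-only windows and 15.4% of the others, but the order was the reverse in each width class. The shares were 30% and 32.7% at 1 kb or less, 12.6% and 16.2% from 1 to 3 kb, and 4.27% and 4.54% above 3 kb. In Pol2-S5p-only windows that held 1 of the 6 word groups the share was 69.5% (66.9% to 72.1%), and in those that held none it was 4.77% (4.12% to 5.49%). The other Pol2-S5p windows split in the same way, into 66.5% and 4.47%. The Sox letters were in 9.65% (8.74% to 10.6%) of Pol2-S5p-only windows without a group against 6.38% (6.04% to 6.72%) of the other Pol2-S5p windows without one. That order was not particular to Sox. Without a group the octamer was in 4.29% and 2.84%, the TATA box in 28.1% and 21.1%, and the CCAAT box in 59.2% and 50.9%. AP-1 was in 9.70% and 8.16%, Esrrb in 1.87% and 1.22%, and Klf in 6.54% and 6.05%. Each motif with a CpG had the lower share in these Pol2-S5p-only windows. A match is a description of letters and not a bound site.

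The ends of chromosomes held some of the highest-scoring Pol2-S5p-only regions. The score in the deposited list has no stated unit and is used here only to rank regions. A Pol2-S5p-only region reached the last assembled base of 9 of the 21 chromosomes, and no other Pol2-S5p region did. The 9 regions were on chromosome X and 8 autosomes, and 6 of them were among the 10 highest-scoring Pol2-S5p-only regions. Their scores ran from 5.38, for a region of 9200 bp on chromosome X, to 150 for a region of 800 bp on chromosome 7. The last 600 bp of these 9 chromosomes held 22 to 98 copies of TTAGGG, and the other ends with any held 6 to 60. The read-length stretches described above were mostly repeated in the 6 regions among the 10 highest scores. In their middle windows 5% to 41.2% of the stretches occurred once, with up to 592 copies of the rest. The part of these copies in the scores was not tested. No H3K27me3 region lay within 10 kb of the 9 ends, and a Pol2-S7p region lay within 10 kb of 1 of them. Both marks were also rare over all 21 ends, with H3K27me3 within 10 kb of 1 and Pol2-S7p within 10 kb of 3.

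The region with the highest score, 272, was chr17:39842800-39849199. It was 6400 bp wide, 8.88% masked and 62.4% GC, with a CpG ratio of 0.967. It touched the promoters of the noncoding RNA genes Gm26917, Gm42418 and AY036118, and GENCODE also annotates a ribosomal RNA gene inside it. Every 75-base stretch of its middle window occurred once on the 21 chromosomes, a count that leaves out copies missing from the assembly, and the nearest Pol2-S7p and H3K27me3 regions were 39600 bp and 39400 bp away. The middle 240 bases of this region and of 4 regions that touched coding promoters are printed to show how they differ in CpG. The CpG is in capitals. Each is named by the gene or genes whose promoter the region touched and is given on the plus strand. The Sspn stretch itself lay outside the 2 kb promoter window.
AY036118, chr17:39845880-39846119: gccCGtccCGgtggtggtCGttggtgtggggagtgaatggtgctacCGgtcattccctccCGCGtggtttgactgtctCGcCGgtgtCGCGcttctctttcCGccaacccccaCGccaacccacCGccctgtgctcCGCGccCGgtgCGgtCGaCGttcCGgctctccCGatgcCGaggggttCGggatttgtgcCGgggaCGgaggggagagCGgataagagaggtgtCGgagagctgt
Sspn, chr6:145932880-145933119: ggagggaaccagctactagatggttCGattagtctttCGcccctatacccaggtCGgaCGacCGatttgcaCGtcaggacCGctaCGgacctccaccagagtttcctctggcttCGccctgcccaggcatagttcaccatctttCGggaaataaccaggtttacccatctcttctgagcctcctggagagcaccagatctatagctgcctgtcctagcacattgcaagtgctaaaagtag
Stx8 and Cfap52, chr11:67966380-67966619: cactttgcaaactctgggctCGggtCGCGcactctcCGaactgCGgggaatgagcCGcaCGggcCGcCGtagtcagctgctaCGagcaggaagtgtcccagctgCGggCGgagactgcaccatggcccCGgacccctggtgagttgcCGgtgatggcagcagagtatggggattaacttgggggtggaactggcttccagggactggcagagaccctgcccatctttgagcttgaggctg
Cfap54, chr10:93081380-93081619: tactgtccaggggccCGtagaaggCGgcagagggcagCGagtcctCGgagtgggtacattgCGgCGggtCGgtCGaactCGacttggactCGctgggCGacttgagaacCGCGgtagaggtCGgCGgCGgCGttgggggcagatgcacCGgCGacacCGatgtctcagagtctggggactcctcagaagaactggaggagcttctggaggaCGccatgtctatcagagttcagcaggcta
Spag6l, chr16:16829080-16829319: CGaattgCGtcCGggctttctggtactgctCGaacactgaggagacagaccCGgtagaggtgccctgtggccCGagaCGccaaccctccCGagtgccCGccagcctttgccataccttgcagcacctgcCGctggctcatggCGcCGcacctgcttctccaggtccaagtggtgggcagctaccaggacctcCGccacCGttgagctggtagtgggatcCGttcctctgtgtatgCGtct

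These stretches held 27, 10, 14, 21 and 16 CpG in the order printed, and none held the letters of any of the 13 motifs. Sspn encodes sarcospan, a membrane protein of the dystrophin complex of muscle. Its region was 400 bp wide and had a score of 45.7, the highest of any coding promoter in the Pol2-S5p-only list. It touched the 2 kb window around 1 of the 3 annotated starts, and that start lay outside the region. In its middle window 59.1% of the 75-base stretches occurred once, with up to 8 copies of the rest. Stx8, a SNARE protein of endosomal membrane fusion, and Cfap52, a protein of cilia, lie side by side, and a single region of 600 bp with a score of 23.7 served both. It touched the windows around all 6 starts of Stx8 and around 2 of the 4 of Cfap52. The nearest regions of both other marks were 43400 bp away. Cfap54, a further protein of cilia, had a region of 600 bp with a score of 21.8 and an H3K27me3 region 2400 bp away. For Spag6l, a protein of the sperm tail, a region of 800 bp with a score of 18 touched the windows around all 6 starts.

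Of the other regions among the 10 highest scores, none touched a promoter. Gm37350 on chromosome 3 was the gene nearest to 1 of them, 800 bp wide and of rank 5. Cmss1 and Filip1l, which overlap on chromosome 16, both held another of the same width (112). The region in Peak1 was 400 bp wide and scored 83.3. Peak1 encodes a pseudokinase of the cytoskeleton, and the region touched an annotated miRNA gene. The 6 chromosome-end regions of this set were nearest to Mrgprd, 4930404O17Rik, Gm45871, Gm14496, Tmem196 and Wls. In all, 7 of the 10 lay between genes, and 6 had unknown bases in the region or its window.

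Promoters, taken as 2 kb windows centred on annotated starts of protein-coding and long noncoding RNA genes, were touched by few Pol2-S5p-only regions. A region or mark is said to be at a start when it touched the window around it. Inside and between genes refer to protein-coding and long noncoding RNA genes only, so regions between genes may hold pseudogenes or small RNA genes. A promoter was touched by 521 of 5140, 10.1% (9.32% to 11%), against 46.0% of all Pol2-S5p regions and 53.6% of those that carried another mark. The share was 31.0% when the rule used only Pol2-S7p and H3K27me3 regions above the median score of their lists. A further 2031, 39.5% (38.2% to 40.9%), lay inside a gene without touching a promoter, against 23.0% of all Pol2-S5p regions. The remaining 2588, 50.4% (49.0% to 51.7%), lay between genes, against 31.0%. The order held within width classes. At 1 kb or less, 6.98% touched a promoter against 35.7% of other Pol2-S5p regions of that width. From 1 to 3 kb the shares were 9.69% and 46.9%, and above 3 kb they were 20.9% and 68.9%.

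**Figure D2:**
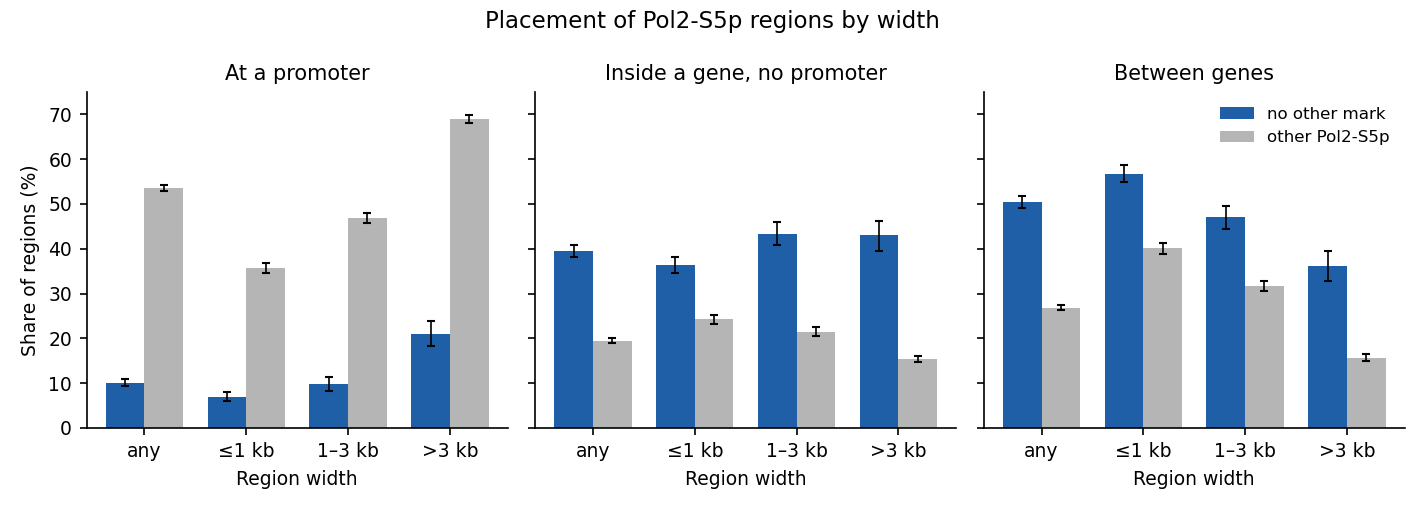
Share of Pol2-S5p regions (vertical axis, percent, bars with exact 95% intervals) at a promoter, inside a gene or between genes, for all widths and for 3 width classes (horizontal axis). Blue bars (Pol2-S5p-only) are below grey bars (other Pol2-S5p regions) at promoters in every class, 6.98% against 35.7% at 1 kb or less, and above them elsewhere.

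A Pol2-S5p-only region touched a promoter of 558 of 35312 genes, which is 1.58%, and of 372 of 21938 protein-coding genes, which is 1.70%. For 164 of the 372 coding genes, 44.1% (39.0% to 49.3%), Pol2-S5p was the sole mark over all annotated starts. The others had other marks at the same or a further start: 96 had Pol2-S5p and Pol2-S7p, 99 had all 3 marks, and 13 had Pol2-S5p and H3K27me3. Among the 186 long noncoding RNA genes the sole-mark group was 177, or 95.2% (91.0% to 97.8%). The rule keeps both other marks out of these regions, so a gene with few annotated starts has little room to carry one. The number of starts per gene was not taken into account, so the 2 shares are not directly comparable.

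The coding promoters with the highest scores fell into a few kinds. Beside Sspn, Stx8, Cfap52, Cfap54 and Spag6l they included several genes on chromosome 14. How alike these genes are in sequence, and the part of read placement in their scores, was not tested. Gm8206 (score 31.4), Gm3488 (30), Gm3020 (24.8), Gm10409 (22.8), 2610042L04Rik (18.6) and Gm3264 (16.4) lie in the first part of chromosome 14, and 5 of these regions were between 3000 and 3200 bp wide. Zfp991, a zinc finger gene (32.7, 2600 bp), Lipo2, a lipase gene (22.1, 100% masked), Gm11808 (20) and Ube2d2b, a ubiquitin-conjugating enzyme gene (17.8), also had Pol2-S5p as their sole promoter mark.

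Other coding genes of this set had Pol2-S5p-only regions at an alternative start. Rere, a transcriptional corepressor (21.7), Smarcad1, a chromatin remodeller (19.7, 100% masked), Usp45, a deubiquitinase (19.2), Rtn4, a membrane protein of the endoplasmic reticulum (16.7), and Ston1, an endocytic adaptor (16.5), each carried Pol2-S7p without H3K27me3 at a further start. The Usp45 region also touched Tstd3, whose single start had no other mark. Usp29, an imprinted deubiquitinase gene (17.1, 80.1% masked), had all 3 marks over its 9 starts.

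The long noncoding RNA genes with the next highest scores after those on chromosome 17 had narrow regions. Gm5165 had a score of 36.2 (800 bp), Gm46436 19.5 (800 bp) and AC165951.2 19.3 (1200 bp). A region of 600 bp with a score of 17.7 touched both 4930555B11Rik and BB557941. At 2610035D17Rik the score was 15.9, and further starts of that gene carried the other marks.

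The widest Pol2-S5p-only regions were of another kind, long and low in score. The 188 regions wider than 10 kb made up 35.5% of the total length of 12.6 Mb, with a median score of 4.99 against 6.89 for the whole Pol2-S5p-only list, and 152 of the 188 touched a coding gene. The widest, 85.0 kb with a score of 5.05, was in Dock1, which activates the GTPase Rac. It was 17.4% masked, and Pol2-S7p and H3K27me3 regions lay 11400 bp and 22000 bp away. The next at coding promoters were in Dock9, an activator of Cdc42 (81.6 kb, score 4.25), Tspan5, a tetraspanin (78.2 kb, 4.76), Zfp827, a zinc finger gene (65.8 kb, 5.03), and Ubl3, a ubiquitin-like protein (54.0 kb, 6.51).

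Snd1, a nuclease of RNA silencing complexes, followed (51.4 kb, 3.77), with Tbc1d22a (50.2 kb, 5.21), Tmem164 (44.2 kb, 2.50) and Eri3, an exoribonuclease (43.2 kb, 6.23). All of these genes but Ubl3 carried Pol2-S7p at another start. For Ubl3 the region touched the windows around all 6 starts, and there was no other mark. Regions without a coding promoter among the 10 widest were in Camta1, a calmodulin-binding transcription activator (64.0 kb, 5.8), in Msi2, an RNA-binding protein (61.2 kb, 9.73), at the starts of Gm47980 (79.4 kb, 5.35), Gm15893 (70.6 kb, 6.75) and Gm45280 (56.4 kb, 5.34), and between genes nearest to Gm49692 (58.0 kb, 4.65).

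The widths and scores themselves were low. The median width was 1000 bp (quartiles 600 and 2000 bp) against 2400 bp (1000 and 11800 bp) for the other Pol2-S5p regions, and the median score was 6.89 against 12. By width, 29.8% of regions of 1 kb or less were Pol2-S5p-only, 18.1% of those from 1 to 3 kb and 7.51% of those above 3 kb. By score, 35.7% of the lowest quartile of the Pol2-S5p list were Pol2-S5p-only and 2.86% of the highest. Width and score both bear on the overlap by which the regions were selected, so these values are given as a description.

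**Figure D3:**
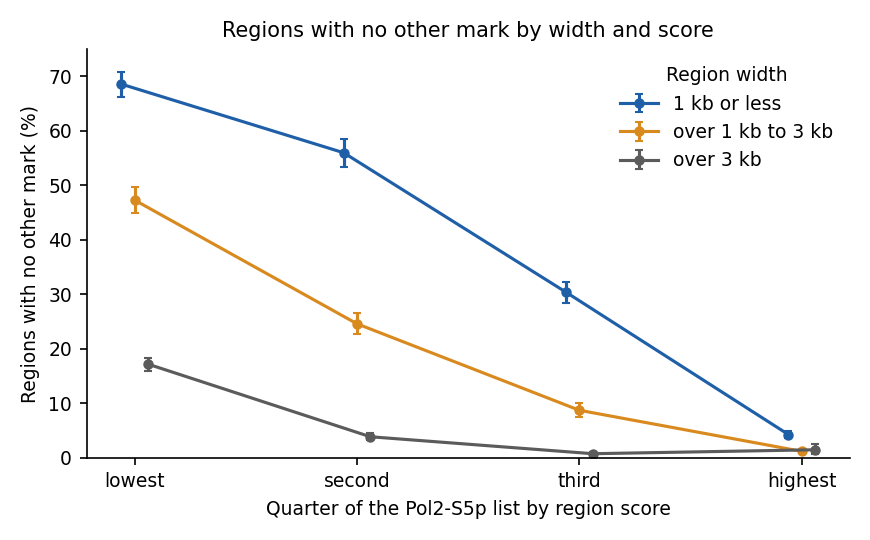
Share of Pol2-S5p regions with no other mark (vertical axis, percent, points with exact 95% intervals) by score quartile of the Pol2-S5p list (horizontal axis), with 1 line per width class. The share falls from 68.6% to 4.28% at 1 kb or less and from 47.3% to 1.19% from 1 to 3 kb. Above 3 kb it falls from 17.2% to 0.757% in the third quartile and is 1.48% in the highest.

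At the edge of the rule, 18 Pol2-S5p-only regions abutted a region of another mark with a gap of 0 bp, and 107 lay within 1 kb of one. Those with the highest scores at a gap of 0 bp were chr1:58382400-58383199 (score 12.8), chr13:114257000-114258199 (10.2) and chr7:60538000-60538799 (10.2), all between genes, nearest to Gm37607, 4631422I05Rik and Gm44644. Just outside, 110 Pol2-S5p regions shared the smallest amount, 200 bp, with another mark. Among them were chr5:23180600-23181399 in Lhfpl3 (17.4), chr10:51582200-51582599 near Fam162b (17.3) and chr7:36024800-36025199 near Gm38991 (17.2).

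Most Pol2-S5p-only regions were well away from the edge. The median gap to the nearest region of either other mark was 27600 bp, to Pol2-S7p 40600 bp and to H3K27me3 58400 bp. A Pol2-S7p region lay within 10 kb of 875, or 17.0% (16.0% to 18.1%), and an H3K27me3 region within 10 kb of 544, or 10.6%. Neither mark lay within 100 kb of 744, or 14.5%. On both sides the nearest other mark was Pol2-S7p for 30.2% and H3K27me3 for 24.7%, and 45.0% had 1 mark on each side. The nearest Pol2-S5p region of any kind was a median of 26800 bp away, against 13400 bp for the other Pol2-S5p regions.

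Chromosomes differed. Pol2-S5p-only regions were between 11.3% (chromosome 11) and 21.9% (chromosome 14) of the Pol2-S5p regions on the 19 autosomes. On chromosome X they were 452 of 1616, 28.0% (25.8% to 30.2%), and on chromosome Y 223 of 646, 34.5% (30.9% to 38.3%). On X, 75.2% of the Pol2-S5p-only regions were at least 50% masked against 46.5% of the others, and on Y 97.3% against 91.7%. The masked share was higher in the Pol2-S5p-only list on all 21 chromosomes. Promoters were touched less often on 20 of the 21. On Y the order was the reverse, 22.0% of Pol2-S5p-only regions against 5.67% of the others.

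**Figure D4:**
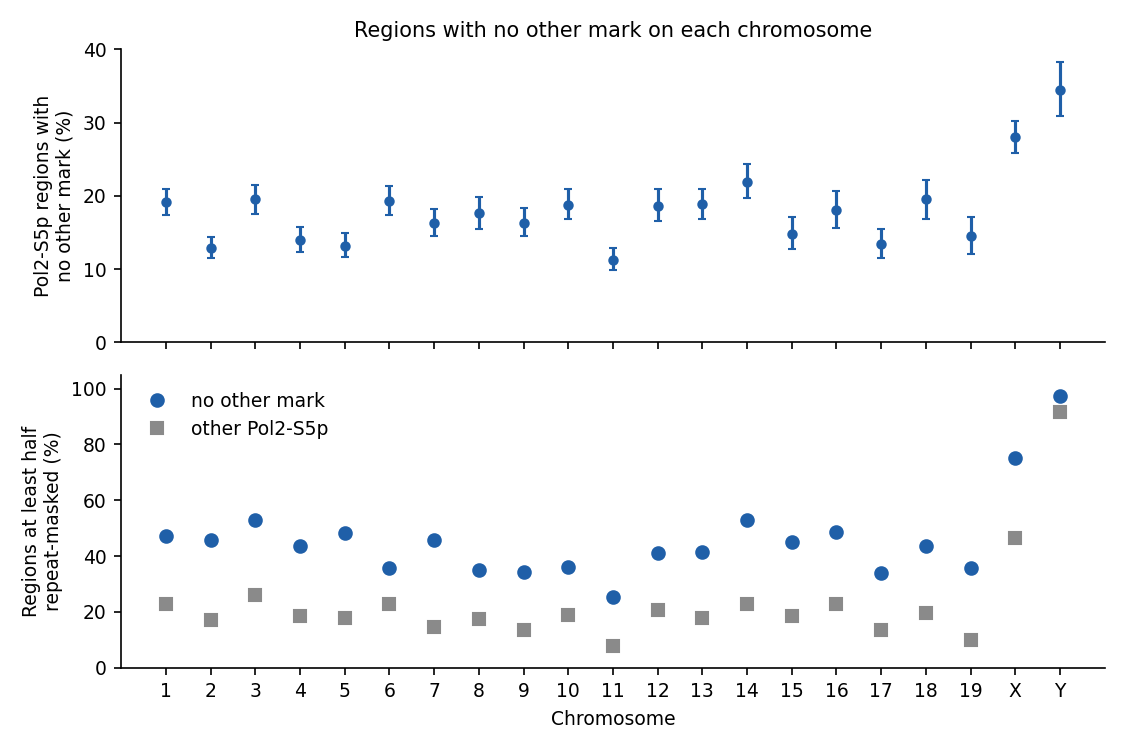
Top, share of Pol2-S5p regions with no other mark (percent, with exact 95% intervals) on each chromosome. Bottom, share of regions that are at least 50% repeat-masked (percent) for Pol2-S5p-only (circles) and other Pol2-S5p regions (squares), where the circle is the higher on every chromosome and X and Y stand highest in both panels, at 28.0% and 34.5% in the top one.

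Inside genes, Pol2-S5p-only regions were in the bodies of 1339 coding genes, of which 340 held at least 2. The genes were long, with a median of 132 kb against 17.4 kb for all coding genes. Pol2-S7p was at a start of 1015 of the 1339, or 75.8% (73.4% to 78.1%), against 62.2% of all coding genes. Among genes longer than 50 kb the shares were closer, 76.9% (74.3% to 79.4%) against 72.8% (71.6% to 74.0%). The hosts of other Pol2-S5p regions inside genes had Pol2-S7p at a start in 72.7%. By promoter marks, 39.2% of hosts had all 3 marks against 28.1% of coding genes, and 10.9% had none against 23.0%.

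Along coding hosts the Pol2-S5p-only regions were spread over the gene. The first 20% of the gene held 14.1% of them, the next 20% 22.2%, then 20.7%, 22.3% and, in the last 20%, 20.7%. The other Pol2-S5p regions inside genes had the same 14.1% in the first 20% and 34.7% (33.3% to 36.2%) in the last. An exon was touched by 21.1% of the Pol2-S5p-only regions in coding hosts and 41.5% of the others, and at 1 kb or less by 10.9% (8.90% to 13.2%) and 16.1% (14.2% to 18.2%). Most of the Pol2-S5p-only regions inside coding genes were thus intronic.

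The hosts with the most Pol2-S5p-only regions in the body were Dmd, the dystrophin gene, and Sox5, a transcription factor of cartilage and neurons, with 8 each. In Dmd they covered 0.284% of a gene of 2257 kb, and the highest score was 28.4. In Sox5 they covered 1.34%, the highest score was 15.1, and the promoters of that gene carried Pol2-S5p and H3K27me3. Kank1, an adaptor of the actin cytoskeleton, and Smyd3, a lysine methyltransferase, held 6 each, and those covered 10.5% and 8.90% of the gene. Gpc5 (a glypican), Exoc6b (an exocyst subunit), Fgfr2 (a fibroblast growth factor receptor), Slc39a11 (a zinc transporter), Diaph2 (a formin) and Pola1 (the catalytic subunit of DNA polymerase alpha) held 5 each. The highest scores among these 6 were 20.6 in Gpc5 and 13.3 in Exoc6b, and the lowest of the highest scores was 5.47 in Pola1. The annotated span of Fgfr2 was 2961 kb, of which its 5 regions covered 0.297%. A region inside several overlapping annotated genes was counted for each of them, so the regions of Fgfr2 need not be that gene's alone.

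Between genes, 1369 of the 2588 Pol2-S5p-only regions, 52.9% (51.0% to 54.8%), were nearest to the 3′ end of a gene, against 54.7% (53.5% to 55.9%) of the other Pol2-S5p regions between genes. Within 5 kb of a gene the shares were 69.0% (63.3% to 74.2%) and 77.0% (74.4% to 79.5%). The median distance to a protein-coding or long noncoding RNA gene, the only kinds counted here, was 37093 bp against 25678 bp. Of the Pol2-S5p-only regions between genes, 26.1% were farther than 100 kb from any such gene, against 21% of the others.

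In the lists of genes that mark cell types or functions, promoters were touched in small numbers, as over all genes. No promoter of the 40 pluripotency genes, the 30 heat shock and chaperone genes, the 77 ribosomal protein genes, the 39 proteasome subunits, the 67 histone genes, the 39 Hox genes or the 20 genes of the small nuclear RNA machinery was touched. The same was true of the 29 immediate early genes, the 24 fibroblast markers, the 55 germline genes, the 47 Sox, Pax, Gata and Tbx factors, the 57 clustered protocadherins, the 93 cytochrome P450 genes, the 327 vomeronasal receptors, the 34 blood and immune markers, the 26 secreted liver proteins and the 17 small nucleolar RNA host genes. Over all genes 1.58% were touched.

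The lists with a touched promoter were 4. Of 1093 olfactory receptors, a family where 28 promoters had Pol2-S5p at all, 12 were touched, 1.10% (0.569% to 1.91%). All 12 had Pol2-S5p as their sole promoter mark, a state that the rule favours where a gene has few starts. The highest scores among them were at Olfr372 (10.4), Olfr91 (9.28), Olfr1350 (8.50), Olfr284 (7.91), Olfr1564 (7.86) and Olfr56 (7.44). Of 106 keratin and keratin-associated genes 4 were touched, 3.77% (1.04% to 9.38%), namely Krtap4-16 (14.2), Krtap4-8 (8.26), Krtap2-4 (7.21) and Krtap9-5 (6.58), which encode hair proteins. Of 365 Zfp zinc finger genes 5 were touched, Zfp991 (32.7), Zfp827 (5.03), Zfp644 (4.66), Zfp738 (3.96) and Zfp608 (3.89). Syn2, a synaptic vesicle protein, was the 1 of 28 neuronal markers (6.85).

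Over all protein-coding genes 5.73% had a Pol2-S5p-only region in the body and none at a start, and the genes of this kind in the lists are given as a description. Among germline genes they were Prdm9, the meiotic histone methyltransferase (25.3), Tex14 (18), Hormad2 (10.4), Nlrp5 (6.08) and Piwil2 (5.29). Among Sox, Pax, Gata and Tbx factors they were Sox6 (17.2), Sox5 (15.1), Pax9 (10.7) and Sox30 (8.71). In 19 Zfp genes a body was touched without a promoter, led by Zfp986 (26.6), Zfp993 (21.2), Zfp652 (14.9), Zfp277 (14.2), Zfp950 (12.1) and Zfp609 (11.6). Single genes of other lists were Dusp1 (17.3), a phosphatase of the immediate early response, Itgam (14.3), Cyp2c66 (11.5), Fga (3.97) and Olfr77 (6.0), and the vomeronasal receptors were Vmn1r210 (11.9), Vmn2r24 (9.42) and Vmn2r53 (9.29).

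Small noncoding RNA genes and annotated enhancers were touched in small numbers. Pol2-S5p-only regions were 17.6% of all Pol2-S5p regions but 3.82% of their length, and wider regions have more room to touch a gene. The shares of touched genes below are therefore not directly comparable with 17.6%. Pol2-S5p-only regions touched 24 of the 430 small nucleolar RNA genes that any Pol2-S5p region touched, 5.58%. For miRNA genes the count was 18 of 913, 1.97%, for small nuclear RNA genes 7 of 242, 2.89%, and for tRNA genes 3 of 168, 1.79%. In RefSeq 11 of 379 touched enhancer records were touched by 9 Pol2-S5p-only regions, 2.90%, and some of these records overlap one another. For processed pseudogenes, which are gene copies made from reverse-transcribed mRNA, the share was 9.59%, 153 of 1595, and for unprocessed pseudogenes it was 10.8%, 18 of 166.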

How the data were processed

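ChIP-seq libraries for Pol2-S5p, Pol2-S7p and H3K27me3 from F123 mESCs, 1 per mark, were sequenced by the authors as 75 bp single-end reads and mapped with Bowtie2 2.3.4.3 to an N-masked mm10 genome, which by default places a read with several equal positions at 1 of them. The authors called enriched regions with the Bayesian Change-point Model peak finder. The deposited lists give chromosome, start, end, region width in bp (a multiple of 200) and a score whose unit is not stated; the score deposited by the authors was used only to rank or filter within a list. Reads were not used here. Starts were treated as 0-based and are printed 1-based.

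From these lists, overlaps of at least 1 bp, distances, placement by GENCODE M21 (21938 protein-coding and 13374 long noncoding RNA genes, 111717 starts), base composition, motif letters and exact 75-base copies were computed with Python 3.11.15, NumPy 2.4.6, pandas 2.3.3 and SciPy 1.17.1. The overlap code was tested on 20 simulated lists of 1000 regions each, all of which were sorted correctly. Shares carry exact Clopper-Pearson 95% intervals, and no test was run. Named genes were those at the 10 highest-scoring and 10 widest regions, the 20 highest-scoring and 10 widest coding promoters, 8 long noncoding RNA promoters by score, 10 hosts by number of regions and up to 6 per list, with 1 widest coding promoter not reported here. Coordinates and sequences are GRCm38.p6. The regions, the lists and the measures were chosen with earlier results of these data known, and the shared words, 75-base copies and chromosome ends were examined after the values were seen. Alternatives changed the distance, score, promoter window, gene set, masking and CpG limits.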

Additional observations from a re-analysis of the deposited data

How the results depend on the processing

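No paired analysis was possible because each mark has 1 library. Across 10 results under 10 alternatives, 24 values were labelled as unchanged and 31 as moved. A share was unchanged if it stayed within the interval of the reported value. The gene count has no interval and was unchanged if it stayed within a fixed ratio. Reversal of a value was not assessed. With Pol2-S7p and H3K27me3 regions limited to those above the median score, which leaves fewer regions to touch, 48.6% of Pol2-S5p regions had no other mark. Of these 31.0% touched a promoter, 30.6% lay inside genes, 38.4% between genes, 29.5% were at least 50% masked, 6.50% were CpG-rich and 8.79% had Pol2-S7p within 10 kb. In that setting 5872 genes had such a promoter in place of 558, 55.7% of regions between genes were nearest a 3′ end and 47.0% of hosts had Pol2-S7p at a start. With only Pol2-S5p regions above the median score, the values in the same order were 7.74% with no other mark, 8.58% at promoters, 53.1% between genes, 57.9% masked, 10.3% CpG-rich, 103 genes, 50.6% nearest a 3′ end and 72.0% of hosts. With no other mark within 5 kb, 15.6% of regions qualified, 50.0% were masked and 9.87% had Pol2-S7p within 10 kb, and with none within 1 kb the last was 16.0%. A promoter window of 1 kb gave 8.85% and of 4 kb 12.8% at promoters, the latter with 37.3% inside genes. Coding genes alone gave 7.2% at promoters, 35.5% inside genes and 57.3% between them. The median masked share was 46.0%, a CpG ratio limit of 0.5 gave 8.95%, and Pol2-S7p within 50 kb gave 56.1%. The number and size of Pol2-S5p-only regions rest on how deeply the other marks' lists were called, and weak regions of the other marks under the authors' calling limit cannot be told apart from their absence. The region lists hold no read counts, so depth was not used here.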
